A study of Homo sapiens with 5 samples.

Results

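The genes described here are 10 members of the kinase cascade that leads to JUN N-terminal kinase (JNK) and p38. They were MAP2K4, MAP2K7, MAP2K3, MAP2K6, MAPK8, MAPK9, MAPK14, MAP3K1, MAP3K5 and MAPK8IP3, out of 23459 genes counted in all. Members were found by symbol through their Entrez identifiers, and all 10 were in the table. The set was chosen by the MAP2K4 level in these same libraries, which was lower in the cells with the JUN guide, so the member values are given as a description and without a test. Messenger RNA was measured by sequencing of 3′ ends in MCF10A SAM cells. The parent line, MCF10A, was derived from human breast epithelium and is immortal but not tumorigenic. SAM (Synergistic Activation Mediator) derivatives of it, picked as single clones, carry a catalytically dead Cas9 joined to VP64 and an MCP-p65-HSF1 activator, and both groups shared these parts. The control cells had a non-targeting guide (NTC, 3 libraries, replicates 1 to 3). The other cells had sgJUN#1, a guide against the JUN promoter (2 libraries, replicates 1 and 2), and the comparison asks how a raised JUN level changes gene expression. The study calls its sequencing replicates biological, and every error and p-value covers the spread between these libraries. A response particular to the picked cells cannot be told apart from one of MCF10A in general.

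Mitogen-activated protein kinases work in tiers. MAP3K enzymes such as MAP3K1 and MAP3K5 phosphorylate MAP2K enzymes, and these phosphorylate JNK (MAPK8, MAPK9 and MAPK10) or p38 (MAPK14 and its relatives). MAP2K4 acts on JNK and p38, MAP2K7 on JNK, and MAP2K3 and MAP2K6 on p38, while scaffolds such as MAPK8IP3 hold the tiers together. JNK in turn phosphorylates the JUN protein and raises its activity, so MAP2K4 stands upstream of JUN. Loss of MAP2K4 is known from a share of breast and other carcinomas.

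Libraries held between 2455627 and 4988062 counts. Levels are given in CPM, that is, counts after TMM scaling of the library sizes. On this scale 3 counts, the upper limit for a gene with a count of 0, equal 0.619 to 1.22 CPM. JUN (Entrez 3725, GRCh37 chromosome 1, 59242517 to 59249720) stood at 25.03, 36.2 and 9.32 CPM in the NTC libraries and at 172 and 265 CPM in the sgJUN#1 libraries, for a log2 fold change of 3.25 (SE 0.484). Its edgeR adjusted p-value was 0.0733, and over the alternatives it ran from 7.16e-12 to 0.322, passing 0.05 without NTC replicate 2 (0.0144) and without NTC replicate 3 (0.00121). NTC replicate 3 stood apart. It differed by more than 1 log2 unit from the mean of the other NTC libraries in 7.73% of 13616 tested genes, against 4.16% and 4.71% for replicates 1 and 2, and each member value that rests on it is given with and without it. No pair of libraries agreed within counting noise (chi-square over its degrees of freedom, 7.62 to 30.8). Of 10 basal or mammary epithelial markers, 8 reached at least 1 CPM in every library, among them KRT6A (398 to 1289 CPM), LAMB3 (133 to 576 CPM) and KRT5 (152 to 454 CPM), whereas KRT14 stayed between 0.826 and 3.26 CPM. The summed level of the 10 was 1072 to 1873 CPM in NTC and 1207 to 2521 CPM in sgJUN#1. Groups did not overlap for 3 of them with sgJUN#1 higher (KRT17, EPCAM and ITGA6) and for 2 with sgJUN#1 lower (KRT14 and ITGB4). Over all tested genes 12.2% did not overlap with sgJUN#1 higher and 12.8% with sgJUN#1 lower. EPCAM stood at 23.7, 7.33 and 23.3 CPM in NTC and 143.9 and 56.5 CPM in sgJUN#1. ITGB4 stood at 119, 47.6 and 292 CPM in NTC and 26.4 and 26.1 CPM in sgJUN#1. The summed level of 5 leukocyte markers was 6.21 to 8.95 CPM in NTC and 11.8 to 17.9 CPM in sgJUN#1. CD68 made up most of it, and CD3E was at 0 in every library. Summed levels overlapped for 6 luminal markers (101 to 234 CPM in NTC, 102 to 112 CPM in sgJUN#1). So did those of 6 fibroblast markers (190 to 298 and 179 to 214 CPM) and 4 endothelial markers (9.35 to 12.2 and 7.87 to 9.91 CPM). In these lists GATA3, PDGFRA and KDR were lower in sgJUN#1 without overlap, and COL1A1 and COL3A1 were higher. KDR, COL1A1 and COL3A1 were near the detection floor.

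MAP2K4 was the member that separated the groups. Its transcript (Entrez 6416, GRCh37 chromosome 17, 11924146 to 12047147, plus strand) was 2.59-fold lower in sgJUN#1 than in NTC, and the other 9 members had groups that overlapped. A gap of this kind was common, since 25.0% of all tested genes had groups that did not overlap, 12.8% with sgJUN#1 lower. The NTC libraries held 603, 356 and 758 MAP2K4 counts and the sgJUN#1 libraries 300 and 171. In CPM these were 165.9, 144.9 and 168.1 against 61.9 and 61.2. Every sgJUN#1 library lay below every NTC library, and the gap between the groups was far wider than the spread within either. The NTC mean was 159.6 ± 12.8 CPM (SD, n = 3) and the sgJUN#1 mean 61.6 ± 0.521 CPM (SD, n = 2). The log2 fold change was -1.38 (SE 0.197). It moved little with the processing, between -1.44 and -1.33 over 11 alternatives, and was -1.34 without NTC replicate 3. The epithelial markers EPCAM, KRT17, ITGA6, KRT14 and ITGB4 and the summed leukocyte markers also had groups that did not overlap. The same held for GATA3, PDGFRA, KDR, COL1A1 and COL3A1. The part of these markers in the MAP2K4 difference was not tested. In bulk RNA, fewer cells with the transcript and less transcript per cell cannot be told apart.

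**Figure D1:**
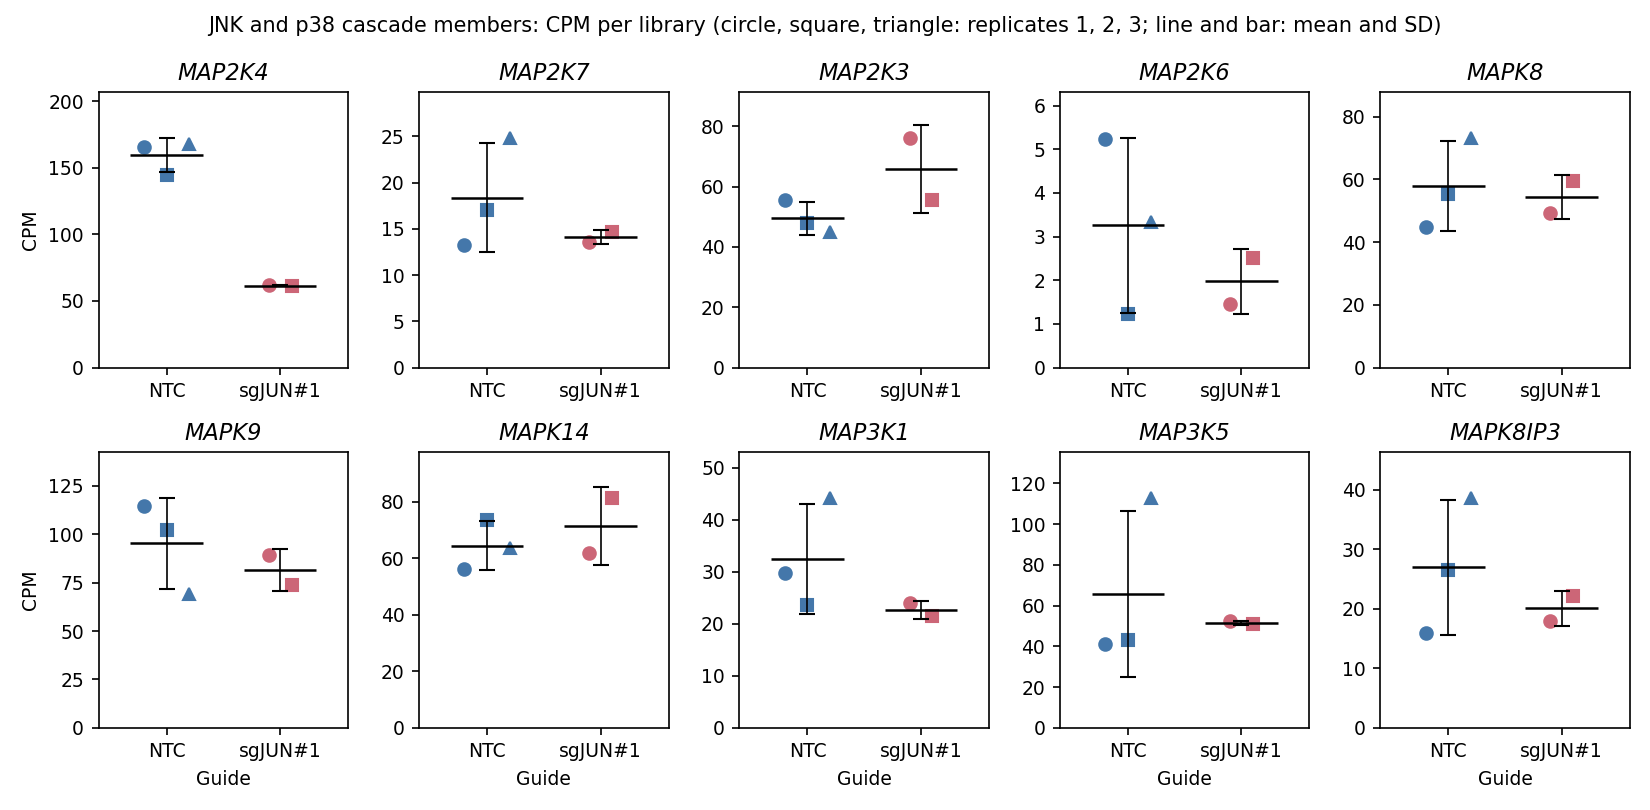
CPM (scaled counts, linear axes from 0) of each of the 10 members in every library, with NTC in blue, sgJUN#1 in red, circles, squares and triangles for replicates 1, 2 and 3, and lines and bars for the mean and SD. In MAP2K4 the sgJUN#1 libraries, at 61.9 and 61.2 CPM, lie below all NTC libraries, while in the other 9 members the groups overlap. Of all tested genes, 25.0% have groups that do not overlap.

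At the edgeR threshold (adjusted p-value under 0.05 over all 13616 tested genes) 1 of the 10 members, MAP2K4, was called, where 0.206% of all tested genes were called and 0.125% were called lower. Because MAP2K4 chose the set through this same contrast, nothing is read from that count. Within the 28 called genes MAP2K4 had the smallest absolute log2 fold change. Over all tested genes 305, MAP2K4 included, had an absolute log2 fold change at least as large, and 160 had one as low or lower. The coefficient of variation of MAP2K4 in NTC was 8.02%, against 22.3% for the biological coefficient of variation fitted over all genes. The call depended on single libraries, since MAP2K4 was not called without NTC replicate 1, with a log2 fold change of -1.35. Without sgJUN#1 replicate 1 or sgJUN#1 replicate 2, which leaves 1 library in that group, the log2 fold changes were -1.38 and -1.36. No call is given for those fits, and a kept call is not implied. Calls of MAP2K4 repeat the contrast that chose the set and are not read as support. The pseudogene copy MAP2K4P1 held 7, 2 and 2 counts in NTC and 4 and 3 in sgJUN#1, and the microRNA gene MIR744, which lies inside MAP2K4, held 0 counts in every library.

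The sequence before the MAP2K4 start is shown because JUN binds DNA as part of AP-1 and the study concerns JUN together with TEAD, the DNA-binding partner of YAP. Promoter sequences were taken from RefSeq on GRCh38.p14, a later build than that of the counts, and they were matched by symbol for 9 of 10 members, all but MAP3K1. Windows of 250 bases before each start were searched on both strands for the AP-1 motif TGANTCA, the related CRE-type motif TGACNTCA and the TEAD motif GGAATG. Matches to these letters are capitalised, and the MAP2K4 window at chr17:12020627-12020876, plus strand, held none.
MAP2K4: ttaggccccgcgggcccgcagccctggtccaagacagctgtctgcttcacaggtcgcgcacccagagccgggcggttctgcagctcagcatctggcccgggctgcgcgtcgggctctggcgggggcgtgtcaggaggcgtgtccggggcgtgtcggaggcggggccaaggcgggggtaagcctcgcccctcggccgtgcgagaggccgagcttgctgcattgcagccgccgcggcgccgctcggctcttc
Over all 35116 promoters of the same length, 6.57% held TGANTCA, 6.87% held TGACNTCA and 11.9% held GGAATG. The MAP2K4 window was 74% G and C, against a median of 58% over all promoters. A window without a match says only that these letters are absent from it.

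Among the 14 windows of the 9 members, 2 held a match, and each belonged to another member. MAP2K3 had TGAGTCA with its first base 41 bases before 1 of its 2 starts (stretch at chr17:21284644-21284702, plus strand), and MAPK8IP3 had TGACGTCA 107 bases before its start (chr16:1706062-1706121, plus strand). JUN itself had TGACATCA 67 bases before its start (chr1:58784081-58784140, minus strand). These 3 stretches are shown with 26 bases on each side of the match.
MAP2K3: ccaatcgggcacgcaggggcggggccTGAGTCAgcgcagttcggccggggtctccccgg
MAPK8IP3: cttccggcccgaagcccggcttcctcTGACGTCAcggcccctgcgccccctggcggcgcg
JUN: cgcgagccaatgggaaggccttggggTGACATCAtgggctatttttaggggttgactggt
A match is a description of the letters and not of a bound site. The 2 members with a match, MAP2K3 and MAPK8IP3, had log2 fold changes of 0.42 and -0.44, both with overlapping groups.

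MAP2K7 (Entrez 5609), the MAP2K dedicated to JNK, was scarce beside MAP2K4. Its NTC libraries had 13.2, 17.1 and 24.8 CPM and its sgJUN#1 libraries 13.6 and 14.7 CPM, so that the sgJUN#1 values lay inside the NTC range. The log2 fold change was -0.39 (SE 0.318), and -0.09 without NTC replicate 3, which was 1.64 times the mean of the other NTC libraries. Reads were taken at transcript 3′ ends, so the counts of these kinases were set side by side within a library without scaling for length. Whether both genes were captured equally was not tested, so the shares are of counts. MAP2K4 made up 92.6%, 89.4% and 87.1% of the MAP2K4 and MAP2K7 counts in NTC and 82.0% and 80.7% in sgJUN#1. The exact 95% binomial intervals, which cover counting error only, ran from 84.7% to 94.5% over the NTC libraries and from 74.7% to 85.8% over the sgJUN#1 libraries. Each sgJUN#1 share was thus lower than each NTC share. The means were 89.7 ± 2.76% in NTC and 81.3 ± 0.924% in sgJUN#1, a difference of -8.42 percentage points, although intervals of the closest libraries overlapped. MAP2K4 remained the larger part in every library. The summed level of both JNK-directed kinases was 178.0 ± 15.5 CPM in NTC and 75.7 ± 0.220 CPM in sgJUN#1.

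MAP2K3 (Entrez 5606), a p38 kinase kinase on the same chromosome as MAP2K4, had the highest log2 fold change of the 10 members. Its NTC libraries had 55.6, 48.0 and 44.8 CPM and its sgJUN#1 libraries 76.2 and 55.5 CPM. The lower sgJUN#1 library reached only the highest NTC library, so the groups touched. The log2 fold change was 0.42 (SE 0.221) and was 0.17 without sgJUN#1 replicate 1. MAP2K6 (Entrez 5608), its closest relative, was near the detection floor with 19, 3 and 15 counts in NTC and 7 and 7 in sgJUN#1. Its log2 fold change of -0.84 (SE 0.634) was therefore imprecise, MAP2K6 dropped under the filter without NTC replicate 1 or without NTC replicate 3, and a change of MAP2K6 was not detectable at this depth.

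The makeup of the MAP2K tier differed between the groups. MAP2K4 made up 69.2%, 68.6% and 69.7% of the counts of the 4 kinases in NTC and 40.4% and 45.7% in sgJUN#1. MAP2K3 made up 23.2%, 22.7% and 18.6% in NTC and 49.7% and 41.4% in sgJUN#1. MAP2K4 was the most abundant of the 4 in every NTC library and in sgJUN#1 replicate 2, whereas MAP2K3 was in sgJUN#1 replicate 1. The ratio of MAP2K4 to MAP2K3 counts, which does not depend on library scaling, was 2.99, 3.02 and 3.75 in NTC and 0.813 and 1.10 in sgJUN#1. Summed over the 4 kinases, the level was 230.7 ± 16.9 CPM in NTC and 143.5 ± 13.7 CPM in sgJUN#1. Without MAP2K4 and MAP2K7 the p38-directed pair stood at 60.8, 49.2 and 48.1 CPM in NTC and 77.6 and 58.0 CPM in sgJUN#1, and its groups overlapped. These shares contain the transcript that chose the set and were not tested.

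**Figure D2:**
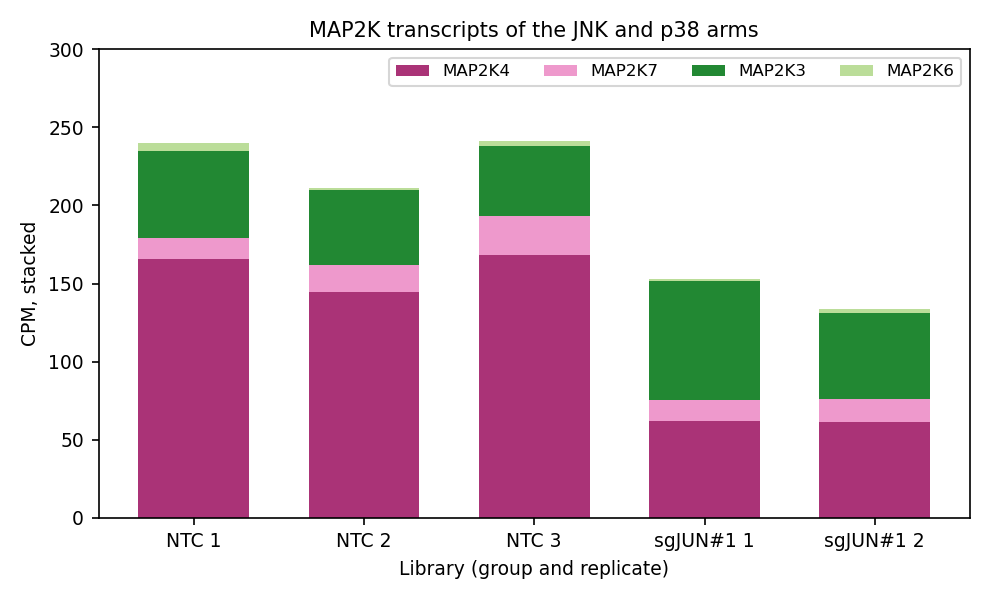
Stacked CPM of the 4 MAP2K transcripts of the JNK and p38 arms in each library, from MAP2K4 at the base to MAP2K6 at the top. The MAP2K4 segment makes up 68.6% to 69.7% of the counts in the NTC libraries and 40.4% and 45.7% in the sgJUN#1 libraries, while the MAP2K7 segment is between 13.2 and 24.8 CPM throughout.

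Taken singly, the members at the end of the cascade had groups that overlapped. MAPK9 (Entrez 5601, JNK2) was the more abundant JNK transcript in 4 of 5 libraries, with 114, 102 and 69.2 CPM in NTC and 89.2 and 74.1 CPM in sgJUN#1. MAPK8 (Entrez 5599, JNK1) had 44.8, 55.4 and 73.2 CPM in NTC and 49.3 and 59.4 CPM in sgJUN#1. Both sgJUN#1 libraries lay inside the NTC range for each gene. The log2 fold changes were -0.22 (SE 0.248) for MAPK9, or -0.40 without NTC replicate 3, and -0.10 (SE 0.249) for MAPK8. The sign for MAPK8 turned, to 0.12 without NTC replicate 3 and to 0.04 without sgJUN#1 replicate 1. In NTC replicate 3 MAPK8 was highest and MAPK9 lowest of all libraries. The replicate block, in which NTC replicate 3 has no partner, also gave 0.12 and is not a separate check. MAPK8 made up 28.2%, 35.1% and 51.4% of the MAPK8 and MAPK9 counts in NTC and 35.6% and 44.5% in sgJUN#1, a spread within NTC that was wider than any distance between the groups. The sum of MAPK8 and MAPK9 was 159.3, 157.5 and 142.4 CPM in NTC and 138.5 and 133.5 CPM in sgJUN#1, so that the groups of the sum did not overlap. The distance from 142.4 to 138.5 CPM was smaller than the spread within NTC. Of all tested genes, taken singly, 25.0% had groups that did not overlap. The means of the sum were 153.1 ± 9.27 CPM and 136.0 ± 3.56 CPM, a far smaller gap than that of the summed JNK-directed MAP2K transcripts.

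MAPK14 (Entrez 1432), which encodes p38 alpha, had 56.1, 73.7 and 63.7 CPM in NTC and 61.7 and 81.2 CPM in sgJUN#1. The groups overlapped, and the log2 fold change was 0.15 (SE 0.219). It turned to -0.05 when sgJUN#1 replicate 2, the highest library, was left out.

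The MAP3K members and the scaffold had their highest value in NTC replicate 3. MAP3K1 (Entrez 4214), a MAP3K that feeds the JNK arm, had 29.7, 23.6 and 44.1 CPM in NTC and 23.9 and 21.5 CPM in sgJUN#1. Its log2 fold change was -0.53 (SE 0.295), and -0.23 without NTC replicate 3. MAP3K5 (Entrez 4217), the oxidative stress sensor ASK1, had 41.0, 43.1 and 112.7 CPM in NTC and 52.2 and 50.8 CPM in sgJUN#1. A single library set its direction. The log2 fold change was -0.36 (SE 0.430) with all libraries and 0.30 without NTC replicate 3 (0.29 with the replicate block), which was 2.68 times the mean of the other NTC libraries. MAPK8IP3 (Entrez 23162), the scaffold JIP3 that links JNK to motor proteins, had 16.0, 26.5 and 38.6 CPM in NTC and 17.96 and 22.2 CPM in sgJUN#1. Its log2 fold change was -0.44 (SE 0.357) and fell in size to -0.07 without NTC replicate 3. MAPK8IP3 overlaps NME3 on the other strand by 32 bp, and since the handling of strand is not stated in the sources used here, reads in that stretch cannot be assigned to 1 gene.

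High values in NTC replicate 3 went with the length of the genomic span of genes. In that library the median log2 distance from the mean of NTC replicates 1 and 2 was -0.12, -0.07, 0.02 and 0.28 over 4 equal classes of tested genes from the shortest to the longest span. The longest class began at 98731 bp. MAP3K5 spans 236052 bp, MAPK8 132722 bp, MAP3K1 80604 bp, MAPK8IP3 64186 bp and MAP2K7 10636 bp, so high members fell in long and in short spans. MAP2K4, at 123002 bp, was not among the members that were high in NTC replicate 3. The part of span in any member value was not tested.

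**Figure D3:**
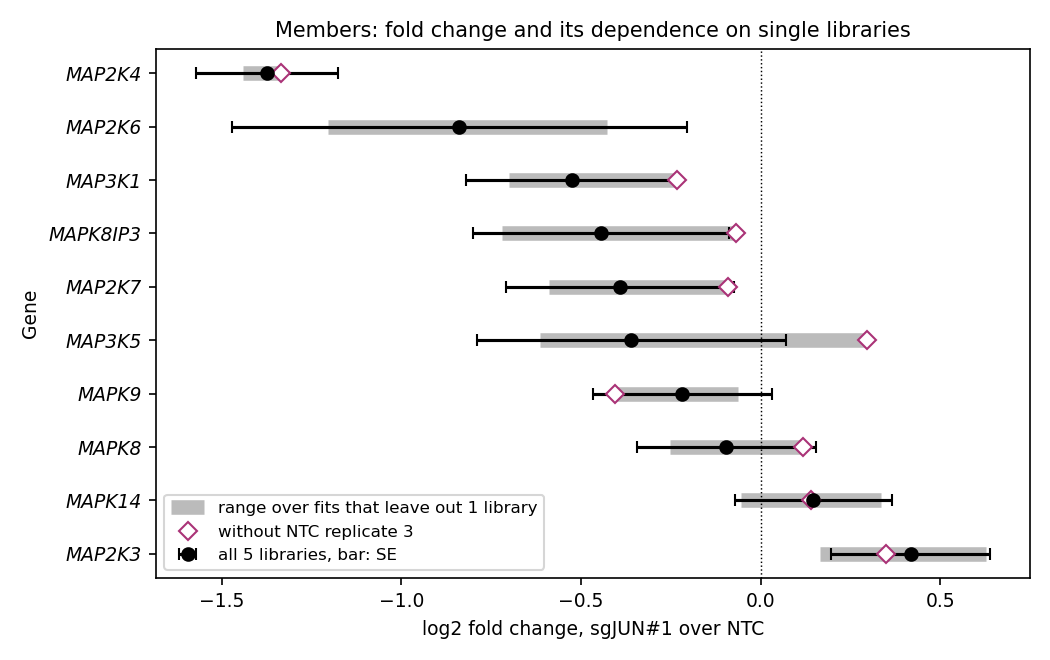
Log2 fold change (sgJUN#1 over NTC) of the 10 members on the horizontal axis, with black points and bars for the value and SE from all 5 libraries, grey bands for the range over fits that leave out 1 library, and open diamonds for the fit without NTC replicate 3. MAP2K4 stays between -1.44 and -1.34, whereas the bands of MAP3K5, MAPK8 and MAPK14 cross 0.

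Read together, 8 of 10 members had a log2 fold change below 0, where 51.0% of all tested genes did. The median member value was -0.38, the median over all tested genes -0.01. This majority rested on NTC replicate 3, since without it 5 of 9 fitted members were below 0, with a median of -0.07. A fit with the replicate number as a block is not a separate check, since NTC replicate 3 has no partner there. It had 6 of 10 members below 0, with a median of -0.06. A gap between groups was found in 1 of 10 members, MAP2K4, where 25.0% of all tested genes had groups that did not overlap and 12.8% did so with sgJUN#1 lower.

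By level, MAP2K4 led the 10 members in NTC, at 159.6 ± 12.8 CPM, and each of its NTC libraries lay above each NTC library of MAPK9, the next member (95.3 ± 23.4 CPM). MAPK9, MAP3K5 (65.6 ± 40.8 CPM), MAPK14 (64.5 ± 8.81 CPM), MAPK8 (57.8 ± 14.3 CPM) and MAP2K3 (49.5 ± 5.52 CPM) followed, and neighbours in this order overlapped. The place of MAP3K5 rested on NTC replicate 3, since its mean over NTC replicates 1 and 2 was 42.1 CPM, below that of MAP2K3 (51.8 CPM). MAP3K1 (32.5 ± 10.5 CPM), MAPK8IP3 (27.001 ± 11.3 CPM) and MAP2K7 (18.4 ± 5.93 CPM) overlapped with each other and lay below MAP2K3 in the NTC libraries, and MAP2K6 (3.26 ± 2.003 CPM) lay below all other members in every NTC library. In sgJUN#1, MAP2K4 was the fourth in order of mean level, at 61.6 ± 0.521 CPM. There it stood behind MAPK9 (81.6 ± 10.7 CPM), MAPK14 (71.5 ± 13.8 CPM) and MAP2K3 (65.8 ± 14.6 CPM), and its libraries overlapped with those of MAPK14 and MAP2K3.

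The rest of the pathway was described from a list of 62 further genes ordered by role, of which 55 had enough counts to be tested and 7 did not. With edgeR's quasi-likelihood test 0 of the 55 were called, and 9 had an unadjusted p-value under 0.05, where 8.38% of all tested genes did. DESeq2 also called 0, where it called 1.03% of all genes with an adjusted p-value. Of the 55, 32 were below 0 and 23 above, with a median log2 fold change of -0.09. Groups did not overlap in 17 of them, 8 lower and 9 higher in sgJUN#1, where 25.0% of all tested genes did not overlap, 12.8% lower and 12.2% higher. The lowest edgeR adjusted p-value was 0.264, so none of the values below is a called change.

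Upstream of the MAP2K tier, 14 other MAP3K genes were tested, with 6 below 0 and 8 above. TAOK3, the most abundant, had 293, 300 and 321 CPM in NTC and 342 and 355 CPM in sgJUN#1, giving 0.19 on the log2 scale (SE 0.179, edgeR adjusted p-value 0.813). MAP3K10, a mixed-lineage kinase that feeds JNK, had the largest value of this role at -1.24 (SE 0.515, edgeR adjusted p-value 0.556), from 15, 9 and 38 counts in NTC and 12 and 6 in sgJUN#1. Its groups did not overlap, but its counts were few and the value was -0.73 without NTC replicate 3. Of 5 tested MAP4K genes, which act above the MAP3K tier, TNIK and MAP4K4 had higher sgJUN#1 libraries. TNIK had 0.86 on the log2 scale (SE 0.298, edgeR adjusted p-value 0.459), with 13.2, 20.4 and 19.3 CPM against 24.6 and 39.7 CPM. MAP4K4 had 182, 291 and 220 CPM against 317 and 370 CPM, giving 0.57 on the log2 scale (SE 0.231, edgeR adjusted p-value 0.542).

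Among 8 tested adaptors and regulators of MAP3K enzymes, 6 were below 0, where 51.0% of all tested genes were. GADD45B, which binds and activates MAP3K4, had 41.5, 38.3 and 63.2 CPM in NTC and 29.1 and 27.5 CPM in sgJUN#1. On the log2 scale the difference was -0.76 (SE 0.268, edgeR adjusted p-value 0.465), and -0.49 without NTC replicate 3. TXN, thioredoxin, which holds MAP3K5 inactive in its reduced form, had 1089, 931 and 738 CPM in NTC and 660 and 648 CPM in sgJUN#1, giving -0.49 on the log2 scale (SE 0.210, edgeR adjusted p-value 0.575). In GADD45B and TXN both sgJUN#1 libraries lay below all NTC libraries.

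Of the JNK and p38 kinases outside the 10 members, MAPK13 (p38 delta) had the lowest adjusted p-value of the pathway. It had 13.2, 15.1 and 9.54 CPM in NTC and 39.8 and 20.4 CPM in sgJUN#1, giving 1.29 on the log2 scale (SE 0.334, edgeR adjusted p-value 0.264). The sgJUN#1 values were above all of those in NTC, but they differed from each other by more than the NTC libraries did. The adjusted p-value was 0.0390 without a filter on low counts and ran up to 0.9996 over the alternatives, and without sgJUN#1 replicate 1 the log2 fold change was 0.71. MAPK10 (JNK3), known mainly from neurons, had 27.2, 31.3 and 53.7 CPM in NTC and 21.7 and 28.3 CPM in sgJUN#1, giving -0.60 on the log2 scale (SE 0.323, edgeR adjusted p-value 0.670). MAPK12 had -0.34 (SE 0.330, edgeR adjusted p-value 0.833), and MAPK11 did not pass the filter, holding 10 counts or fewer per library. The scaffolds SPAG9 (JIP4) and SH3RF1 (POSH) had -0.07 and 0.39, while MAPK8IP1 and MAPK8IP2 held at most 1 count in any library.

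Downstream of p38, 7 effector kinases were tested. MAPKAPK2, the most abundant, had 156.5, 157.9 and 156.8 CPM in NTC and 173.6 and 167.8 CPM in sgJUN#1, giving 0.12 on the log2 scale (SE 0.180, edgeR adjusted p-value 0.904). Its relative MAPKAPK3 had 18.2, 16.3 and 12.4 CPM in NTC and 25.4 and 24.7 CPM in sgJUN#1, giving 0.69 on the log2 scale (SE 0.258, edgeR adjusted p-value 0.502). The groups were separate in both genes, with sgJUN#1 higher. Of 9 transcription factor substrates 7 were below 0, where 51.0% of all tested genes were. MEF2C, a target of p38, had -1.39 (SE 0.526, edgeR adjusted p-value 0.508) from 11, 13 and 21 counts in NTC and 6 and 6 in sgJUN#1, and ELK4, the most abundant, had -0.16 (SE 0.207).

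Of the phosphatases that switch JNK and p38 off, 7 were tested and all 7 had overlapping groups. Since 25.0% of all tested genes had groups that did not overlap, so few genes give no result about the phosphatases. DUSP1, the most abundant, had 335, 246 and 303 CPM in NTC and 254 and 242 CPM in sgJUN#1, giving -0.25 on the log2 scale (SE 0.203, edgeR adjusted p-value 0.788). DUSP10 had the largest value, 1.01 (SE 0.742, edgeR adjusted p-value 0.767), from 1, 10 and 20 counts in NTC and 18 and 24 in sgJUN#1. In the parallel ERK arm 0 of 9 tested genes were called, 0 had an unadjusted p-value under 0.05, DESeq2 called 0 and the lowest edgeR adjusted p-value was 0.792. Over all genes these shares were 0.206%, 8.38% and 1.03%, so 0 of 9 is read as no result about the arm. MAP2K1, the counterpart of MAP2K4 in that arm, had 142, 180 and 123 CPM in NTC and 168 and 157 CPM in sgJUN#1, for a log2 fold change of 0.13 (SE 0.215). MAPK7 had the largest value of the arm, 0.38 (SE 0.406), and turned to -0.023 without sgJUN#1 replicate 2.

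**Figure D4:**
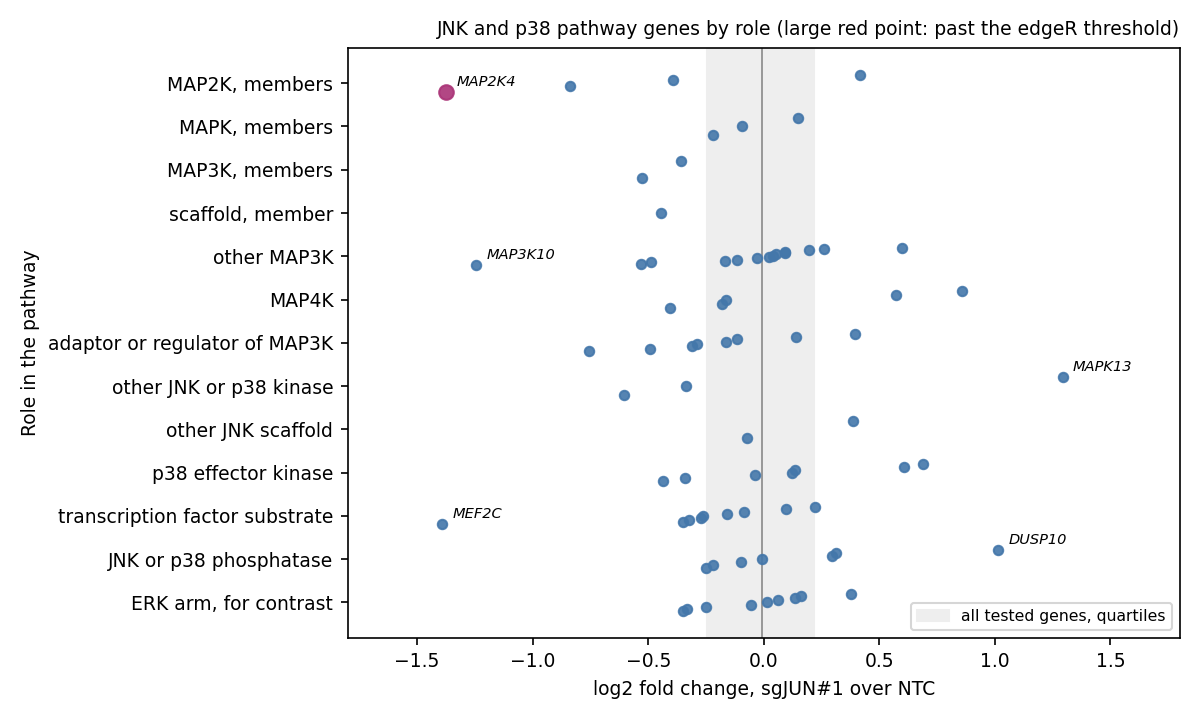
Log2 fold change (sgJUN#1 over NTC, horizontal axis) of every tested gene of the JNK and p38 pathway and of the ERK arm, 1 point per gene, in a line for each role, with a grey band between the lower and upper quartile of all tested genes. MAP2K4, at -1.38, is the only large red point, which marks an edgeR adjusted p-value under 0.05. That mark repeats the contrast that chose MAP2K4 and is not read as a test. MEF2C at -1.39, MAP3K10 at -1.24, MAPK13 at 1.29 and DUSP10 at 1.01 lie far from 0 without passing.

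The genes around MAP2K4 on chromosome 17 were examined for a difference shared by the locus. With edgeR 0 of 4 tested neighbours were called, 0 had an unadjusted p-value under 0.05 and DESeq2 also called 0. At shares over all genes of 0.206%, 8.38% and 1.03%, counts of 0 in 4 genes say little. LINC00670 and MYOCD, the nearest genes after MAP2K4, were under the filter. ZNF18, 23354 bp before MAP2K4 and the closest, had 4.95, 2.85 and 3.11 CPM in NTC and 4.33 and 2.50 CPM in sgJUN#1, for a log2 fold change of -0.05 (SE 0.472). DNAH9 had -0.50 (SE 0.344, edgeR adjusted p-value 0.748) and SHISA6 -0.92 (SE 0.426, edgeR adjusted p-value 0.621), and in both the sgJUN#1 libraries lay below all NTC libraries. Over all tested genes 12.8% had groups that did not overlap with sgJUN#1 lower and 12.2% with sgJUN#1 higher. ARHGAP44, 645668 bp after MAP2K4, had 0.29 (SE 0.437). No neighbour exceeded 8.87 CPM in any library, so that changes of the size of that in MAP2K4 rested on far fewer counts there.

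**Figure D5:**
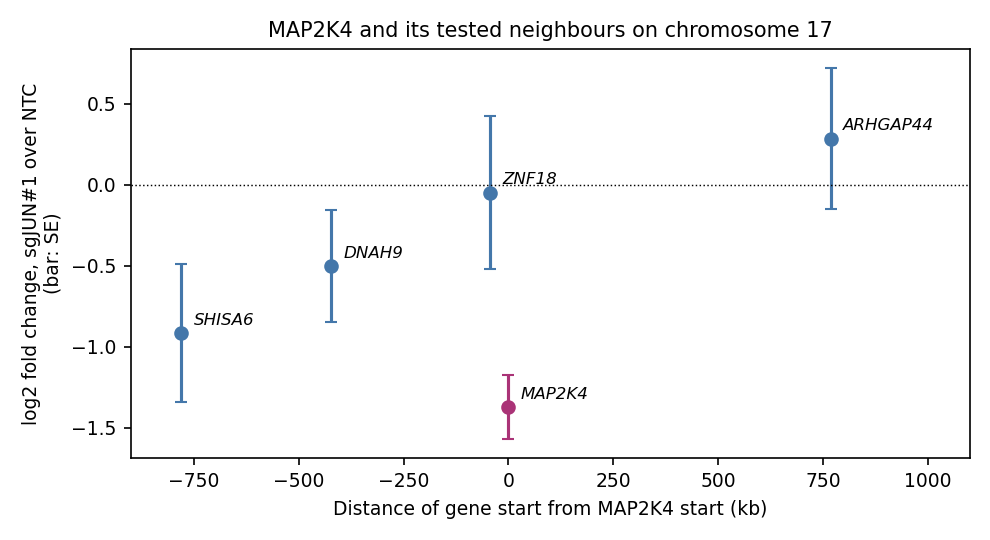
Log2 fold change (sgJUN#1 over NTC, bars for SE) of MAP2K4 and its 4 tested neighbours against the distance of each gene start from that of MAP2K4, in kilobases. MAP2K4 lies at -1.38, below ZNF18 at -0.05 and ARHGAP44 at 0.29, with DNAH9 at -0.50 and SHISA6 at -0.92 between.

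The genes whose profile was most like that of MAP2K4 were ranked by the root mean square difference, over the 5 libraries, of log2 CPM less the NTC mean. They were LINC00685 (0.0864 log2 units), NR2F1-AS1 (0.0978), COL18A1 (0.141), ATP8B3 (0.162) and APOC1 (0.172), out of 13615 other tested genes. In that order their edgeR log2 fold changes were -1.98, -1.51, -1.69, -1.63 and -1.19, against -1.38 for MAP2K4. The prior count of 2 in the log2 CPM makes differences smaller in genes with few counts. NR2F1-AS1, a long noncoding RNA, had 35.8, 27.7 and 31.3 CPM in NTC and 10.7 and 11.4 CPM in sgJUN#1. LINC00685 held at most 15 counts in a library. Among the pathway genes the nearest were MEF2C (0.378, rank 139), MAP3K10 (0.414, rank 197) and GADD45B (0.462, rank 308). The nearest member was MAP3K1, at 0.616 and rank 1141, and the farthest was MAP2K3, at 1.13 and rank 11420.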

How the data were processed

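The deposited values were raw counts per gene from the authors. RNA was extracted on columns, libraries were made with the QuantSeq 3′ mRNA-Seq forward kit, and reads were trimmed and aligned to hg19. The submitters' processing notes name cutadapt 4.2 and Bowtie2 2.3.5.1, and the methods give countOverlaps in R for counting. The gene annotation, strand handling and use of molecular identifiers are not given in the sources used here, so copies made by PCR may count as separate reads and intervals cover counting error only. Reads shared with gene copies or overlapping genes can be placed in the wrong gene.

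Of 23459 genes, 23308 received a symbol from NCBI gene names and 22423 a GRCh37 position from GENCODE version 44 mapped to that build. All 5 columns matched the description of 1 library each, so 0 were left unused. Groups and replicate numbers came from the sample titles. Genes were tested in edgeR 4.0.16 under R 4.3.3 by its quasi-likelihood method (TMM, filterByExpr, robust, group alone), with Benjamini-Hochberg adjustment over 13616 genes and a threshold of 0.05. The SE was obtained from the log2 fold change and F, as their size over the root of F, and log2 CPM for likeness used a prior count of 2. The procedure was tested on simulated data with 200 changed genes. Their simulated spread was smaller than that fitted here (biological coefficient of variation 22.3%), and no simulated library stood apart. That test therefore does not show how the procedure behaves at the spread of these libraries. Alternatives were DESeq2 1.42.0, voom of limma 3.58.1, library size alone, upper-quartile scaling, no filter, a replicate block and leaving out each library. Python 3.11.15 and scipy 1.17.1 gave exact binomial intervals.

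The members, pathway lists and tests were chosen with earlier results of these data known, so member values carry no test. The text names JUN, the members, in each role the tested gene with the largest absolute log2 fold change and the one with the highest mean CPM, the 6 genes nearest to MAP2K4 and the 5 most like it. MAPK11, MAPK12, MAPK8IP1 and MAPK8IP2 were added to complete their roles, and MAP2K4P1, MIR744 and NME3 for shared reads. For its own enrichment analysis the study states fewer replicates than there are NTC libraries in the labels, and all 5 libraries were used here.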

Additional observations from a re-analysis of the deposited data

How the results depend on the processing

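The number of all genes called was 28, against 140 with DESeq2 and 148 without a filter, and 10 to 57 when single libraries were left out. Leaving out NTC replicate 1 gave 10, NTC replicate 2 gave 56 and NTC replicate 3 gave 57. Members called ran from 0 to 1 over these fits, with 0 without NTC replicate 1, and MAP2K4 kept its direction in every fit. Where 1 sgJUN#1 library was left, only its log2 fold change is given (-1.38 without replicate 1, -1.36 without replicate 2). A kept call is not implied for those fits. MAP2K4 chose the set, so these calls are not read as support. Other pathway genes called were 0, or 1 without a filter (MAPK13), and ERK arm genes and MAP2K4 neighbours called stayed at 0 in all 11 alternatives. The sign turned for MAPK7 without sgJUN#1 replicate 2 (-0.023) and for ZNF18 without NTC replicate 1 (0.24) and without sgJUN#1 replicate 2 (0.24). Among members it turned for MAPK8 (0.12 without NTC replicate 3, 0.12 with the replicate block, 0.04 without sgJUN#1 replicate 1), MAP3K5 (0.30 without NTC replicate 3, 0.29 with the block) and MAPK14 (-0.05 without sgJUN#1 replicate 2). Over fits without 1 library MAPK7 ran from -0.023 to 0.76, ZNF18 from -0.54 to 0.24, and the MAP2K4 share of the MAP2K4 and MAP2K7 counts differed by -9.72 to -6.97 points. The cause was not tested for any of these. MAP2K6 could not be fitted in 2 of 11 alternatives and MEF2C in 1, being under the filter there. Depth limited MAP2K6, MAP3K10, MEF2C, DUSP10 and the neighbours of MAP2K4, with at most 40 counts in a library.

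The labels give both groups replicate numbers 1 and 2, but the difference between these numbers correlated with r = 0.0146 over 13616 genes between the groups, so libraries with 1 number were not treated as pairs. With the replicate block, in which NTC replicate 3 has no partner, 103 genes were called (54 higher, 49 lower), MAP2K4 had -1.33 and was the 1 member called, and 0 other pathway genes were called. JUN had 2.82 under the block, with an edgeR adjusted p-value of 1.2e-04.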
